A study of Homo sapiens with 5 samples.

Results

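The genes described here are 44 genes of the G2/M transition and of mitosis, taken by symbol from the 58929 genes measured in every library. They cover cyclin and CDK1 control (7 genes), mitotic kinases (3), the chromosomal passenger complex (3), the spindle checkpoint (5), the onset of anaphase (4), kinesins (7), centromere and kinetochore (5), other spindle and midzone proteins (6), cytokinesis (2) and chromosome structure (2). All 44 were found, and each passed the filters on low values in the comparisons of both arms. The study sequenced ribosome footprints, the mRNA fragments that ribosomes shield from RNase, in A549, an established human lung cancer line, to ask what RBMS1, an RNA-binding protein, does in lung cancer. It had 5 libraries: 1 short hairpin (sh) control, 2 stable RBMS1 knockdowns, each with its own hairpin (sh1088 and sh1196), 1 control named pCDH, and 1 stable RBMS1 overexpression named R1A. All cells carried a stable construct and received cycloheximide at 100 ug/mL for 15 min, and lysates were digested with RNase I for 5 min. Each hairpin has 1 library, so differences between hairpins, between cultures and of a technical kind cannot be told apart in the spread of the knockdown libraries. The p-values reflect the spread between these libraries alone, pooled in part over genes, and part of that spread may be technical.

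As background, cyclin B and CDK1 form the kinase that drives cells into mitosis, and the spindle checkpoint holds the anaphase-promoting complex (APC/C) back until every kinetochore is attached. Once the checkpoint is satisfied, the APC/C marks cyclin B and securin for destruction, the chromatids part and the cell divides. The mRNAs of these genes are made mostly in late S and G2 phase under FOXM1, B-MYB and the MuvB complex, so their summed level in a culture moves with the share of dividing cells as well as with the level in each cell. In bulk libraries fewer cells in G2 and mitosis and less RNA or translation per cell cannot be told apart. Matched total RNA libraries were not analysed here, so footprints reflect mRNA level and translation together.

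RBMS1 itself was read at 31.0 counts-per-million (CPM, scaled by the trimmed mean of M values, TMM, over all 5 libraries) in the sh control and at 18.3 and 13.4 with hairpins sh1088 and sh1196. The pCDH control had 24.7 and the overexpression library 37.0. Both hairpin libraries lay below the sh control and the overexpression library above the pCDH control on this scale, the direction of the labels, but the knockdown difference did not pass the test (log2 -0.93, SE 0.45, edgeR adjusted p = 0.828). On the authors' TPM, which also takes in the transcript length estimated in each library, RBMS1 ran the other way after knockdown, at 1.59 in the sh control against 3.70 and 4.20 with the hairpins, and stood at 11.6 for pCDH and 12.6 with overexpression. Library totals ran from 10327747 to 13980843 expected counts, of which the 44 genes took 11461 (sh control) to 38390 (overexpression). The share of counts from nuclear protein-coding genes was 37.7% for the sh control and 42.2% for sh1088, against 62.3% to 66.3% for the other 3 libraries. Summed over markers, the 8 A549 markers stood at 7103 to 14757 CPM and the 7 epithelial markers at 1037 to 2273 CPM, with none at 0 in any library. Fibroblast markers summed to 5.11 to 41.9 CPM, immune markers to 28.3 to 109 and endothelial markers to 0.155 to 1.18, with PTPRC at 0 in every library. In GENCODE release 29, 9 of the 44 genes overlap another gene on their strand (ASPM, BUB1B, CCNB2, CENPA, KIF4A, NUSAP1, PLK4, PRC1 and TOP2A) and 24 on either strand. Expected counts can be split between overlapping genes. In that release (GRCh38, which may not be the authors' build) 6 genes that the results turn on lie as whole genes as follows: CCNB1 at chr5:69167010-69178245, CDK1 at chr10:60778331-60794852, BUB1 at chr2:110637698-110678114, MAD2L1 at chr4:120055608-120067074, TTK at chr6:80003887-80042527 and NUSAP1 at chr15:41332694-41381050.

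The promoters of these genes share short elements that the choice of genes did not use. The cell cycle genes homology region (CHR, TTTGAA, or TTCAAA on the other strand) binds the MuvB complex, and the CCAAT box (CCAAT, or ATTGG on the other strand) binds NF-Y. RefSeq promoter windows of build GRCh38.p14, 250 bases before to 50 after the start, matched 37 of the 44 genes. The CHR letters were in 27 of the 37 (73.0%), against 15.4% of all 27305 promoters in that table, and CCAAT was in 28 (75.7%), against 35.7%. Both were in 22 of the 37 (59.5%), against 6.08%. A match describes letters only, and the 2 motifs can overlap, as they do next to the start of MKI67. To show how the elements sit, 6 promoters follow as the 150 bases before the start, 5′ to 3′ on the gene's strand, with matches in capitals. CCNB2 (chr15:59104996-59105145, plus strand) has the arrangement of 3 CCAAT boxes ahead of a CHR, CDC20 (chr1:43358831-43358980, plus), PLK1 (chr16:23678739-23678888, plus) and MKI67 (chr10:128126424-128126573, minus) hold both motifs in other spacings, BUB1 (chr2:110678064-110678213, minus), the gene highest after knockdown, holds CCAAT letters only, and CDC25B (chr20:3786801-3786950, plus), among the lowest after overexpression, holds neither.
CCNB2: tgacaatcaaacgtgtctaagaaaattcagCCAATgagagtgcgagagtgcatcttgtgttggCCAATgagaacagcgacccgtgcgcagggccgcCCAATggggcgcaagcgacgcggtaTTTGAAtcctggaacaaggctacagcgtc
CDC20: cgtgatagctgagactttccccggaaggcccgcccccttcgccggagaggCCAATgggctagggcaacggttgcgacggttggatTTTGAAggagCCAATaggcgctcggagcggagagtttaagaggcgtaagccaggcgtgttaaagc
PLK1: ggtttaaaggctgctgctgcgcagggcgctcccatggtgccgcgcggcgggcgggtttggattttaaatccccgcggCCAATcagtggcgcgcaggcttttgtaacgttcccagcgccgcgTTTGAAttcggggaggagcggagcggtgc
MKI67: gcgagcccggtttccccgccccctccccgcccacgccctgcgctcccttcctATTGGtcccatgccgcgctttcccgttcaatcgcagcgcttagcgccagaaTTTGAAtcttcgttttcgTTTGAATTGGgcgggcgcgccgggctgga
BUB1: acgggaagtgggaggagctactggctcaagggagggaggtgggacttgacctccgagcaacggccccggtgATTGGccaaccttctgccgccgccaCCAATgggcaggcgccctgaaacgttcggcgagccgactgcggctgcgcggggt
CDC25B: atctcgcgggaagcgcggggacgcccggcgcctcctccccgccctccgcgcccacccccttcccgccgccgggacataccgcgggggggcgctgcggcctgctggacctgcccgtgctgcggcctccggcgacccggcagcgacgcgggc
The CHR of CCNB2, of PLK1 and the nearer one of MKI67 all begin 29 bases before the start, and that of CDC20 begins 65 before it. Set beside the values below, the 22 genes with both motifs had a median log2 fold change of 0.79 after knockdown and 0.81 after overexpression. The 15 with a promoter entry that lack one or both stood at 0.65 and 0.58. CDC25B, CDC25C, CENPE and KIF2C, which hold neither, stood at 0.24 and 0.21. These sets were formed after the values were known and were not tested.

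In sum over the 44 genes, the sh control had the fewest footprints and the overexpression library the most. As counts-per-million of the nuclear protein-coding total, the sh control had 2614 (95% Wilson interval 2566 to 2662). With hairpins the sum was 3197 (3148 to 3248) for sh1088 and 4905 (4853 to 4958) for sh1196. The pCDH control had 3967 (3927 to 4008) and the overexpression library 5882 (5824 to 5941). No 2 of these intervals overlap, but they hold counting error alone (PCR duplicates are not separate molecules), and no group but knockdown has a second library. The order is not that of RBMS1: both knockdown libraries lay above the sh control and the overexpression library lay above the pCDH control. The sums of 30 G1/S and replication genes took the same order, from 2229 for the sh control through 2589 (sh1088), 3332 (pCDH) and 3517 (sh1196) to 4026 with overexpression. The ratio of the mitotic to the G1/S sum was 1.17 for the sh control and 1.19 for the pCDH control, and 1.24, 1.39 and 1.46 for sh1088, sh1196 and overexpression, so it was lowest in the controls. The 2 libraries with the smallest coding share, the sh control and sh1088, were also those with the lowest mitotic sums, and the part of library make-up in these sums was not tested.

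**Figure D1:**
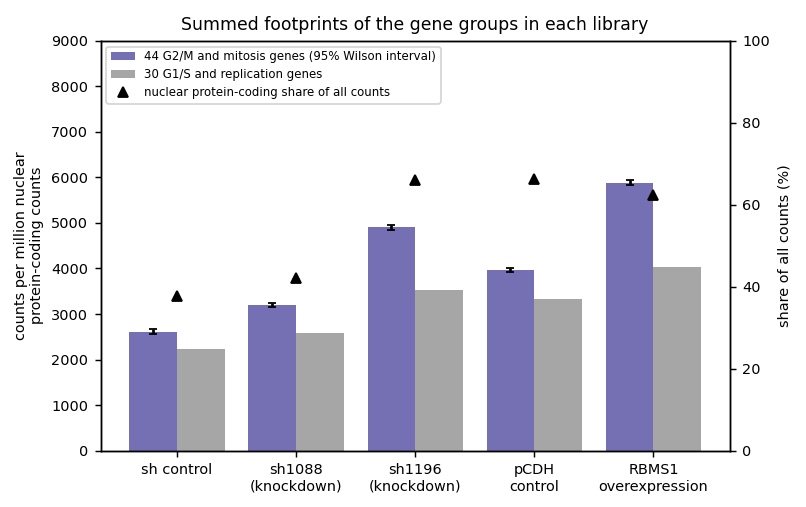
Bars (left axis) give summed counts of the 44 G2/M and mitosis genes, with 95% Wilson intervals, and of 30 G1/S genes as counts-per-million of the nuclear protein-coding total in each of the 5 libraries, and triangles (right axis) the share of all counts from nuclear protein-coding genes. The mitotic sum goes from 2614 in the sh control to 5882 in the overexpression library, and the sh control and sh1088, lowest in both sums, also have the lowest coding share.

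Gene by gene, the overexpression library was the highest of the 5 for 29 of the 44 genes, where it was highest for 17.9% of all 15827 genes tested over the 5 libraries. It was the lowest for 0 of the 44, against 15.5% of all genes. The sh control was the highest for 1 (23.4% of all genes) and the lowest for 21 (24.1% of all genes), the pCDH control for 11 (29.6%), sh1088 for 10 (15.2%) and sh1196 for 2 (15.6%). Levels between genes can be compared only per length. By the authors' FPKM (fragments per kilobase of effective length, scaled to library size), UBE2C, the E2 enzyme of the APC/C, had the highest median over libraries at 128, followed by PRC1 at 125, CCNB1 at 119.7, AURKB at 100.2 and BIRC5 at 85.7. KIF14 at 2.18, KIF20B at 2.86, PLK4 at 4.17 and NDC80 at 4.89 were the lowest. Neighbours in this order cannot be separated: PRC1 ran from 22.1 to 140.2 FPKM over the 5 libraries and ranked between first and the tenth.

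**Figure D2:**
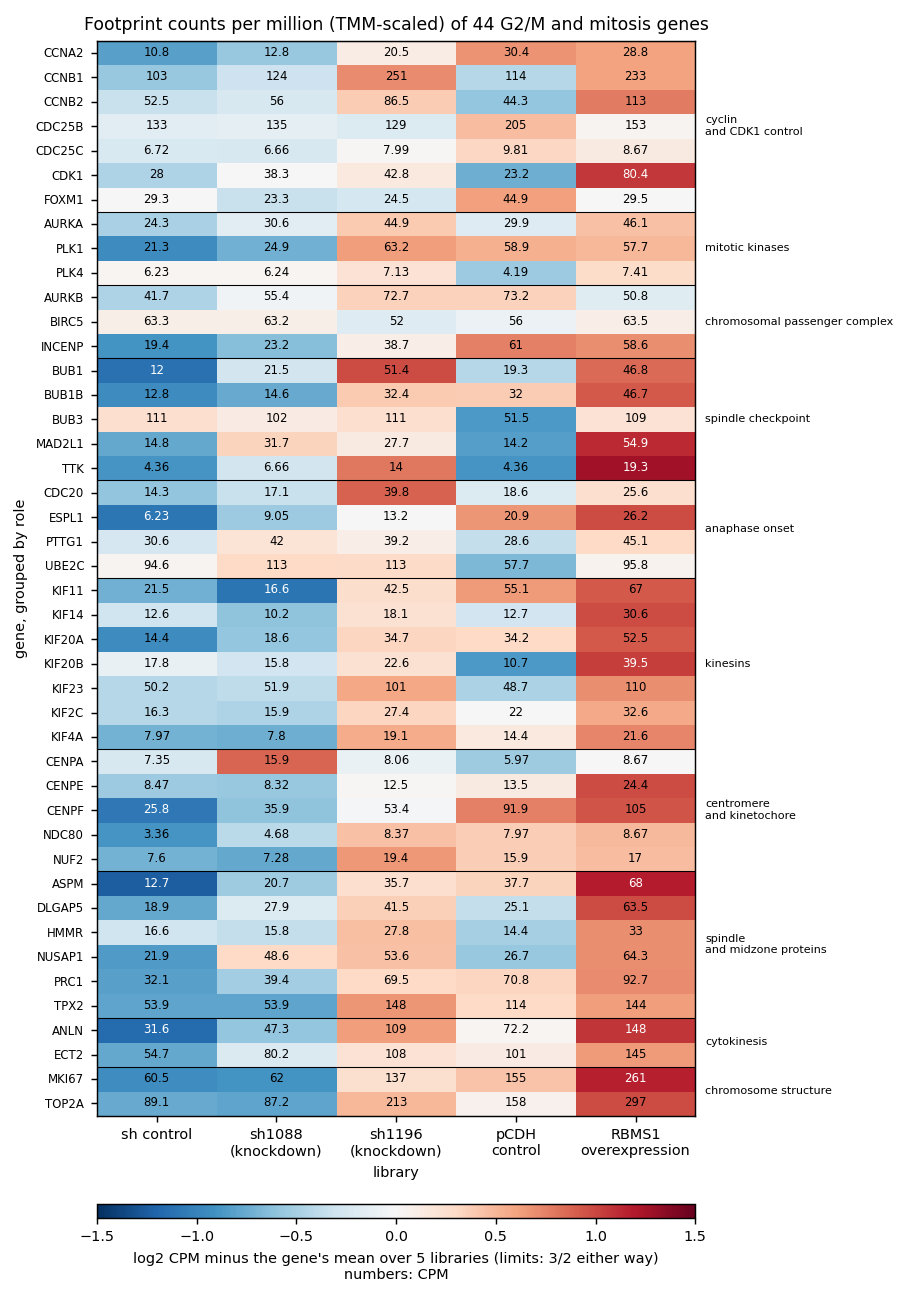
Each row is 1 of the 44 genes, grouped by role, each column 1 library; numbers are TMM-scaled CPM and color is log2 CPM minus that gene's mean over the 5 libraries. The overexpression column is highest for 29 genes and the sh control column lowest for 21, while BIRC5 varies little and BUB3 is low in the pCDH control alone.

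Knockdown against the sh control asks whether losing RBMS1 moves these genes. Most of the 44 genes were higher in both hairpin libraries, in sh1196 more than in sh1088, but no gene passed the test. Of the 44, 41 had a log2 fold change above 0, where 54.1% of the 14913 genes tested did, and 8 were at least 2-fold higher (12.5% of all genes) with 0 at least 2-fold lower. Their median was 0.74, against 0.07 over all genes tested. With edgeR's quasi-likelihood test and Benjamini-Hochberg adjustment 0 of the 44 genes and 0 of all genes (0.0%) passed the threshold of 0.05, the lowest adjusted p of a member being 0.828. At an unadjusted p under 0.05 there were 2, BUB1 and NUSAP1, and 876 of all genes (5.87%). DESeq2 called 17 genes and limma-voom 0, with 0 of the 44 in either. The fit has 1 residual degree of freedom, and it assumes that the lone control varies like the knockdown libraries. Each gene's spread is drawn mostly from that of all genes (median prior degrees of freedom 7.16). In simulated data it called 1.79% of genes changed 2-fold and 40.3% of those changed 4-fold, so a gene not called may still have changed. The simulation changed only well-counted genes and used a smaller dispersion (spread beyond counting error) than the 0.151 fitted here. Recovery among the 44 genes may thus be lower.

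The direction rests on the one sh control. With the pCDH control in its place the median of the 44 was -0.03, and 21 of 44 were above 0 (51.9% of all genes). Summed fibroblast markers (7, of which 3 were at 0 in the sh control and 2 in each hairpin library) stood at 5.11 CPM for the sh control and at 11.2 and 41.9 for sh1088 and sh1196. THY1 made up 2.74, 5.30 and 38.7 of these and COL1A1 1.25, 4.99 and 2.71. Immune markers summed to 28.3, 35.1 and 69.1 CPM, and the part of both marker lists in the differences between these libraries was not tested.

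Against that shared control, the median of the 44 genes was 0.29 in sh1088 and 0.99 in sh1196, beside 0.02 over all genes in both. In sh1088 37 of 44 were above 0 (51.2% of all genes) and 3 at least 2-fold higher (10.5%). In sh1196 40 were above 0 (50.8%) and 21 at least 2-fold higher (15.1%). Both hairpins were above 0 for 35 genes (36.7% of all genes) and both below for 2, FOXM1 and BUB3. For 38 of 44 genes sh1196 was above sh1088. The 95% counting interval lay above 0 for 20 genes in sh1088 and for 37 in sh1196, and below 0 for 2 in each (FOXM1 and KIF11 in sh1088, FOXM1 and BIRC5 in sh1196). Shares of all genes with such intervals were not counted, and the intervals hold counting error alone.

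**Figure D3:**
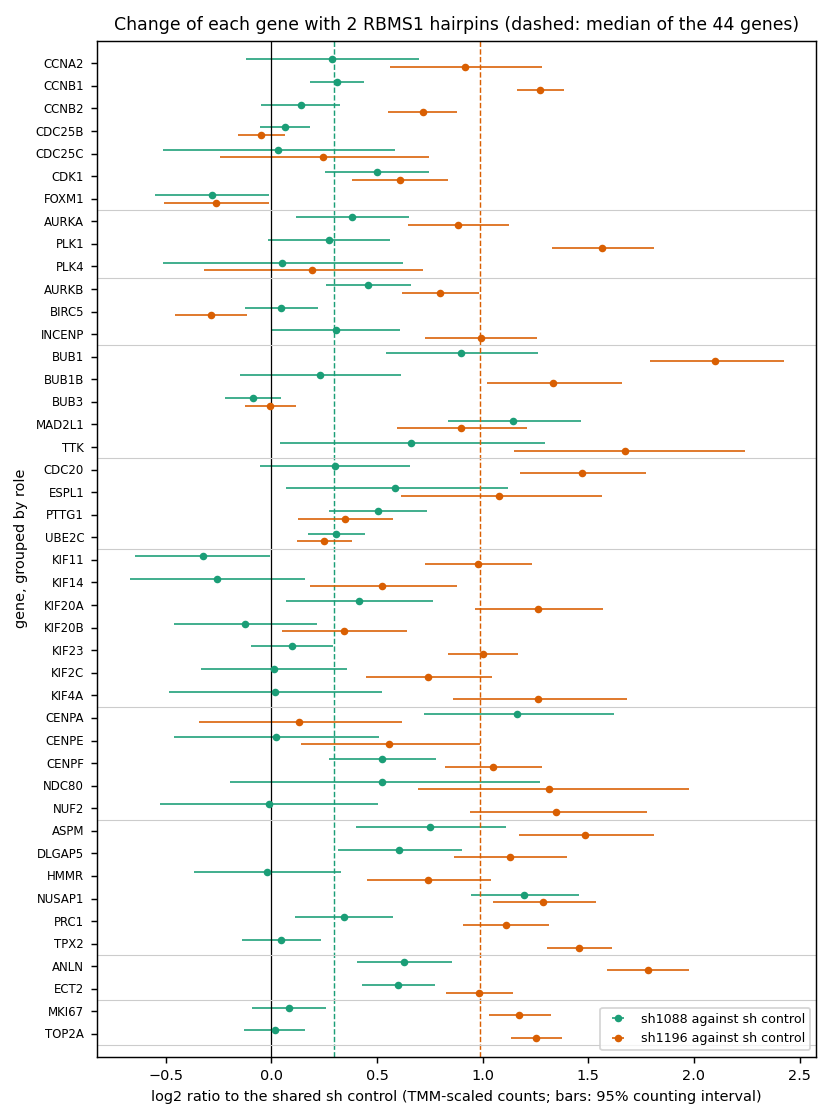
Points are log2 ratios of TMM-scaled counts to the shared sh control for sh1088 and sh1196, bars are exact conditional 95% counting intervals, and dashed lines are the medians of the 44 genes, 0.29 and 0.99. The sh1196 point lies to the right of the sh1088 point for 38 of 44 genes.

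Values by role follow, as CPM for the sh control first, then sh1088, then sh1196, then the pCDH control and last the overexpression library. CCNB1, cyclin B1, stood at 103, 124, 251, 114 and 233. After knockdown its log2 difference was 0.89 (SE 0.60; adjusted p = 0.830 with edgeR), and sh1196 and the overexpression library stood far above their controls, with sh1088 closer to its own. CDK1, the kinase that cyclin B activates, stood at 28.0, 38.3, 42.8, 23.2 and 80.4, with a knockdown value of 0.57 (SE 0.45; adjusted p = 0.857 with edgeR). Here the hairpins were alike and the overexpression library stood alone. CCNB2, cyclin B2, was likewise highest in the overexpression library, with 52.5, 56.0, 86.5, 44.3 and 113, and CCNA2, cyclin A2, was as high in the pCDH control, with 10.8, 12.8, 20.5, 30.4 and 28.8. The phosphatases that activate CDK1 were flat after knockdown, at 0.02 (SE 0.48) for CDC25B and 0.16 (SE 0.57) for CDC25C. FOXM1, the transcription factor of this program, was the lowest of the 44 at -0.26 (SE 0.43, edgeR adjusted p = 0.927), with 29.3, 23.3, 24.5, 44.9 and 29.5 CPM. It was thus below its control in both hairpins and in the overexpression library, by less than its error after knockdown.

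Among the mitotic kinases, PLK1, which acts from mitotic entry to cytokinesis, stood at 21.3, 24.9, 63.2, 58.9 and 57.7 CPM, and AURKA, the centrosomal Aurora kinase, at 24.3, 30.6, 44.9, 29.9 and 46.1. Knockdown fold changes were 1.08 (SE 0.64) and 0.67 (SE 0.48) on the log2 scale. PLK1 split the libraries into the sh control and sh1088 against the other 3, whereas AURKA was higher than its own control in each manipulated library. PLK4, the kinase of centriole duplication, was flat at 0.14 (SE 0.58). In the chromosomal passenger complex, which corrects faulty attachments, the kinase AURKB stood at 41.7, 55.4, 72.7, 73.2 and 50.8 and the subunit BIRC5 (survivin) at 63.3, 63.2, 52.0, 56.0 and 63.5. BIRC5 was among the least variable of the 44 genes, with a knockdown value of -0.10 (SE 0.45). AURKB was above its control in both hairpins, at 0.65 (SE 0.47), and below it in the overexpression library. INCENP, the scaffold of the complex, stood at 19.4, 23.2, 38.7, 61.0 and 58.6 CPM, so its difference between the controls was larger than any difference from a control.

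The spindle checkpoint genes had a high median after knockdown, 1.04 over 5 genes with 3 at least 2-fold higher. BUB1, a checkpoint kinase at kinetochores, had the largest value of the 44, with 12.0, 21.5, 51.4, 19.3 and 46.8 CPM and a knockdown value of 1.64 (SE 0.64; adjusted p = 0.828 with edgeR). Its hairpin ratios were 0.90 (interval 0.54 to 1.26) and 2.10 (1.79 to 2.42), so that both intervals lay above 0 without overlapping. MAD2L1, which inhibits CDC20, stood at 14.8, 31.7, 27.7, 14.2 and 54.9, at 1.04 (SE 0.47) after knockdown. Both controls were low and alike for MAD2L1 and the 3 manipulated libraries high. TTK, the kinase that starts checkpoint signalling, had the same shape at lower depth, with 4.36, 6.66, 14.0, 4.36 and 19.3 CPM and 1.27 (SE 0.67). BUB1B (BubR1) stood at 12.8, 14.6, 32.4, 32.0 and 46.7 CPM. BUB3, their binding partner, did not follow them, with 111, 102, 111, 51.5 and 109 CPM and -0.03 (SE 0.48).

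At the onset of anaphase, CDC20, the APC/C activator that the checkpoint restrains, stood at 14.3, 17.1, 39.8, 18.6 and 25.6 CPM, and PTTG1, securin, at 30.6, 42.0, 39.2, 28.6 and 45.1. CDC20 was high in sh1196 above all, at 1.02 (SE 0.61) for the knockdown as a whole, and PTTG1 was modestly above its control in each manipulated library, at 0.44 (SE 0.45). ESPL1, separase, stood at 6.23, 9.05, 13.2, 20.9 and 26.2, and UBE2C at 94.6, 113, 113, 57.7 and 95.8. These 2 were at 0.87 (SE 0.57) and 0.29 (SE 0.48). The 7 kinesins, motors that move chromosomes and spindle poles, were all above 0 with a median of 0.49, although sh1088 was below its control for KIF11, KIF14 and KIF20B. KIF11, which pushes the poles apart, had 21.5, 16.6, 42.5, 55.1 and 67.0 CPM and KIF20A, a midzone kinesin of cytokinesis, 14.4, 18.6, 34.7, 34.2 and 52.5. KIF14, another cytokinesis kinesin, had 12.6, 10.2, 18.1, 12.7 and 30.6. For KIF11 the 2 hairpins went opposite ways, with counting intervals of -0.64 to -0.01 in sh1088 and 0.73 to 1.23 in sh1196.

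All 5 centromere and kinetochore genes were above 0 after knockdown, with a median of 0.83 and a range up to 0.99. CENPF, a large kinetochore protein, stood at 25.8, 35.9, 53.4, 91.9 and 105 CPM, CENPE, a kinetochore motor, at 8.47, 8.32, 12.5, 13.5 and 24.4, and NDC80, the microtubule-binding subunit, at 3.36, 4.68, 8.37, 7.97 and 8.67. NDC80 rests on the fewest footprints of all, 27 counts in the sh control. CENPA, the centromeric histone, stood at 7.35, 15.9, 8.06, 5.97 and 8.67 CPM, highest in sh1088, at 1.16 (0.72 to 1.62) against 0.13 (-0.34 to 0.62) in sh1196. Among spindle proteins, NUSAP1, which bundles spindle microtubules, stood at 21.9, 48.6, 53.6, 26.7 and 64.3 CPM, with a knockdown value of 1.25 (SE 0.47, edgeR adjusted p = 0.828). Its hairpins were the best matched of the strongly shifted genes, at 1.20 (0.94 to 1.45) and 1.29 (1.05 to 1.54). TPX2, which activates AURKA on the spindle, stood at 53.9, 53.9, 148, 114 and 144, so its 0.94 (SE 0.68) rested on sh1196, with sh1088 at 0.05 (-0.14 to 0.23). ASPM, a spindle pole protein, had 12.7, 20.7, 35.7, 37.7 and 68.0 CPM.

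ANLN (anillin), the scaffold of the contractile ring, stood at 31.6, 47.3, 109, 72.2 and 148 CPM, and its knockdown value of 1.34 (SE 0.62) was the second highest. ECT2, the exchange factor that activates RhoA there, was at 0.82 (SE 0.50). TOP2A, which untangles sister chromatids, stood at 89.1, 87.2, 213, 158 and 297, and MKI67, the Ki-67 proliferation antigen on mitotic chromosomes, at 60.5, 62.0, 137, 155 and 261. Both were level between the sh control and sh1088 and more than 2-fold higher in sh1196, at 1.25 (1.14 to 1.37) and 1.17 (1.03 to 1.32) on the log2 scale. Picked after their values were seen, the genes that stood highest in both hairpins were NUSAP1, BUB1 and MAD2L1, whose lower hairpin ratios were 1.20, 0.90 and 0.90.

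The authors' deposited table for knockdown gives fold changes within 0.007 of these for each of the 44 genes and calls more of them. In it 3 of the 44 have an adjusted p under 0.05, NUSAP1 (0.0166), BUB1 (0.0201) and ANLN (0.0409), all higher, where the authors' deposited table calls 3.46% of 15560 genes and 1.69% higher. DESeq2 run here on the same counts called none of the 3, and its design is not stated in the labels.

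Other genes of the pathway, listed by function, were read the same way, and with edgeR 0 of them were called after knockdown. The 8 condensin subunits, which compact mitotic chromosomes, had a median of 0.83 with 7 above 0, among them NCAPH at 1.41 (SE 0.60) with 7.60, 12.7, 26.7, 33.7 and 21.0 CPM. Of 18 other mitotic kinesins and spindle proteins 17 were above 0, with a median of 0.51 and KIFC1 highest at 0.99 (SE 0.54). For 29 other kinetochore, passenger and checkpoint genes the count was 22 and the median 0.30, with SKA2 lowest at -1.05 (SE 0.60). Cohesin and its regulators had 7 of 10 above 0 and a median of 0.28, led by CDCA5 (sororin) at 1.75 (SE 0.50), with 8.09, 28.9, 24.2, 42.2 and 30.3 CPM. Of 30 G1/S and replication genes 26 were above 0 with a median of 0.54, and CDT1, a replication licensing factor, was at 1.79 (SE 0.60). Genes of G1/S and of G2/M thus both had medians above that of all genes, and no test compared the 2 lists.

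The APC/C itself did not share the shift, with 12 of 17 genes below 0 and a median of -0.09. Its small subunits ANAPC13 and ANAPC16 stood at -1.21 (SE 0.49) and -1.12 (SE 0.48). The 12 DREAM and MuvB transcription factors were at -0.07, with 8 below 0. Among 14 other G2/M regulators (median 0.34, 9 above 0) 2 extremes stood out: PKMYT1, the kinase that holds CDK1 inactive, at 2.28 (SE 0.75), and ARPP19, which inhibits the phosphatase PP2A-B55 in mitosis, at -1.50 (SE 0.64). PKMYT1 had 2.99, 8.01, 20.4, 56.6 and 17.1 CPM and ARPP19 342, 171, 64.2, 88.9 and 164, and both differed at least as widely between the controls. Of the 5 CDK inhibitors tested 4 were below 0 (median -0.57). CDKN1A, the p21 inhibitor through which p53 represses these genes, stood at 302, 179.5, 98.1, 77.5 and 60.2 CPM. It was thus highest in the sh control, where 21 of the 44 mitotic genes were lowest, and lowest in the overexpression library, where 29 were highest. Its knockdown value was -1.09 (SE 0.55, edgeR adjusted p = 0.828), and its part in the levels of the 44 genes was not tested.

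Overexpression has 1 library and so does its pCDH control, which leaves log2 ratios with counting intervals and no test. Most of the 44 genes were higher in the overexpression library, by more for most checkpoint genes, CDK1 and several kinesins, and a few were lower. Of the 44, 37 had a ratio above 0, where 52.7% of 10844 genes did. At least 2-fold higher were 14 (15.0% of all genes), and at least 2-fold lower were 0 (13.9%). The median was 0.63, against 0.07 over all genes. Counting intervals lay above 0 for 35 genes, below 0 for 3 and held 0 for 6. The shares of all genes with such intervals were not counted, so these counts do not set the 44 apart. Markers moved in this arm too. All 8 A549 markers were above 0, with a median of 0.99. Summed fibroblast markers stood at 29.2 CPM for pCDH and 10.2 with overexpression (4 and 2 of 7 at 0), and immune markers at 109 and 37.6 (4 of 7 at 0 in each). The part of these in the ratios of the 44 genes was not tested.

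By role, the spindle checkpoint had a median of 1.29, with all 5 genes above 0, the lowest being BUB1B at 0.56. One of them, BUB3 at 1.09, was level with the sh control (109 and 111 CPM) and above a low pCDH control (51.5). TTK at 2.16 (1.78 to 2.55) and MAD2L1 at 1.96 (1.75 to 2.18) were the highest of the 44. KIF20B, a kinesin of cytokinesis, followed at 1.90 (1.65 to 2.15), with 17.8, 15.8, 22.6, 10.7 and 39.5 CPM in the 5 libraries, and CDK1 at 1.81 (1.64 to 1.98). Cyclins B2 and B1 stood at 1.37 (1.24 to 1.50) and 1.04 (0.95 to 1.12), while cyclin A2 was at -0.07 (-0.27 to 0.13). All 7 kinesins were above 0 (median 0.63), as were all 6 spindle and midzone proteins (median 1.04) and all 5 centromere and kinetochore genes, the last at a median of only 0.20. The 3 genes with intervals below 0 were FOXM1 at -0.60 (-0.78 to -0.41), AURKB at -0.51 (-0.66 to -0.37) and CDC25B at -0.40 (-0.49 to -0.32). CDC25B stood at 133, 135, 129, 205 and 153 CPM, flat except for a high pCDH control. PLK1 at -0.02 (-0.16 to 0.12) and INCENP at -0.04 (-0.18 to 0.09) had intervals that held 0. On log2(TPM + 1), where all genes had a median of -0.71, TTK stood at 1.32, KIF20B at 1.59, CDK1 at 0.49 and MAD2L1 at 0.14, and CENPF, BUB1B, MKI67, KIF11, CENPE and TPX2 were below 0. The gene length that RSEM estimated in each library, which enters TPM and FPKM, differed between the libraries for some of these, from 680 nt (pCDH) to 1417 nt (overexpression) for MAD2L1 and from 1663 to 6084 nt for CENPF.

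The ratios in this arm followed the base composition of the transcripts. Across 10323 protein-coding genes the overexpression ratio fell as the GC content of the transcript rose (Spearman rho = -0.58), and across the 44 genes likewise (rho = -0.60, Pearson r = -0.64). These correlations are across genes of the same library pair, and genes are not independent replicates. The 44 genes are AT-rich, with a median transcript GC content of 43.4% against 49.3% for protein-coding genes, and 34 of 44 lay below that median. Of the 9 members at 50% GC or more 4 were above 0 and 0 were at least 2-fold higher, with a median of -0.02 beside -0.46 for coding genes of that range. Of the 35 members below 50%, 33 were above 0 and 14 at least 2-fold higher, with a median of 0.84 beside 0.48 for coding genes, of which 23.1% were at least 2-fold higher. Below 40% GC all 14 members were above 0 and 7 at least 2-fold higher, beside 35.0% of coding genes.

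**Figure D4:**
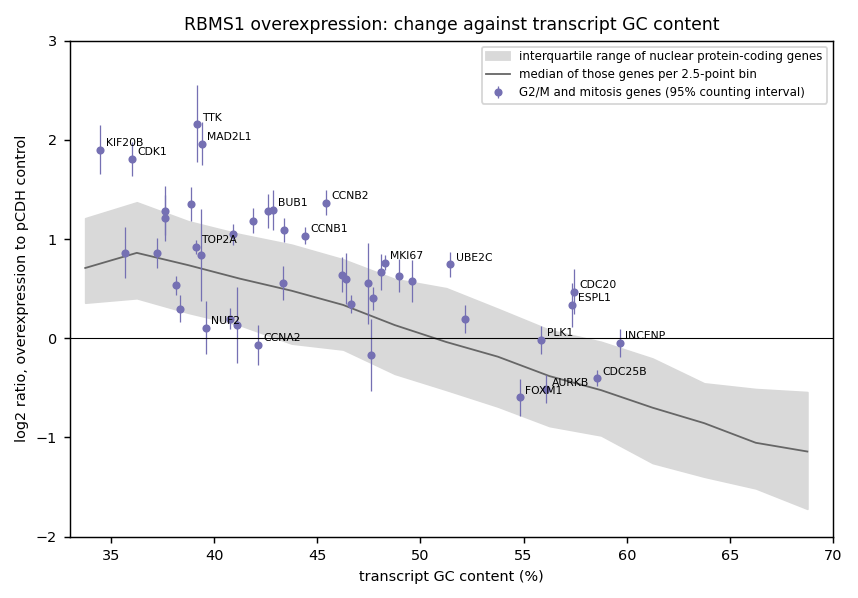
Points are the 44 genes by transcript GC content (x) and log2 ratio of the overexpression library to the pCDH control (y) with 95% counting intervals; the line and band are the median and interquartile range of nuclear protein-coding genes in GC bins. Ratios fall with GC for coding genes (rho = -0.58) and for the 44 (rho = -0.60), and 3 genes above 50% GC (FOXM1, AURKB, CDC25B) have intervals below 0.

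With the GC trend of coding genes taken out of the ratio, the median of the 44 was 0.45, against 0.08 over nuclear protein-coding genes. Of the 44, 35 were above 0, for which the share over coding genes was not counted. At least 2-fold higher were 5, a share near the 10.3% of 10340 coding genes. Those 5 were TTK at 1.53, MAD2L1 at 1.34, CCNB2 at 1.08, KIF20B at 1.03 and CDK1 at 1.02. CDC20 and ESPL1, both GC-rich, went from 0.47 and 0.34 to 0.99 and 0.85, and CCNA2 and NUF2 were the lowest at -0.54 and -0.50. AURKB was at -0.09 and FOXM1 at -0.26, and CDC25B changed sign to 0.19. The knockdown values show no such relation among the 44 (rho = -0.07), nor much of one among 12786 coding genes (rho = 0.10). The pCDH control, the denominator here, differed from the sh control in the opposite sense, with a rho of 0.40 over 9907 coding genes and 0.13 over 42 members. The pCDH control also had the longest fragments of the 5 libraries and the overexpression library the shortest, with a median difference between gene length and effective length of 51.3 and 39.9 nt. The part of fragment length in these ratios was not tested.

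The authors' deposited table for overexpression gives lower values for the same genes. Its median over the 44 is 0.24, with 29 above 0, and it calls 10 of them at an adjusted p under 0.05, where the authors' deposited table calls 25.4% of 17714 genes. Higher there are MAD2L1, TTK, KIF20B, CDK1, KIF14, BUB3 and NUSAP1 (7 genes, beside 13.7% of all genes called higher), from 0.89 for NUSAP1 to 1.82 for MAD2L1 (adjusted p = 1.59e-07). Lower are AURKB at -0.97, FOXM1 at -0.87 and CDC25B at -0.70. The authors' deposited table differs from the ratios computed here by -0.68 to -0.14, and 8 genes have the other sign in it (BIRC5, CENPF, ESPL1, KIF11, NDC80, NUF2, PRC1 and TPX2). The count columns of the authors' deposited table equal the library values, and any rescaling of these 2 libraries would shift every gene by the same amount. How its values were made is not stated in the labels or headers.

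The controls themselves differed for these genes, by a median of a size like those above. Of 42 members at the minimum level 31 were above 0 (49.6% of 10431 genes), 15 were at least 2-fold higher in the pCDH control (17.5%) and 1, BUB3, at least 2-fold lower (18.7%). Their median was 0.66, against -0.01 over all genes. CENPF was highest at 1.84 (1.63 to 2.06), then ESPL1 at 1.76 (1.33 to 2.22) and INCENP at 1.66 (1.42 to 1.91). BUB3 at -1.11 (-1.24 to -0.97), KIF20B at -0.73 (-1.05 to -0.40) and UBE2C at -0.70 (-0.84 to -0.57) were the lowest. Vector, selection and library preparation cannot be told apart between these 2 controls.

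Taken against its own control, each arm had most of the 44 genes higher. The labels have RBMS1 down in the first arm and up in the second. On TMM-scaled CPM RBMS1 had these directions, but its knockdown value (log2 -0.93, SE 0.45) did not pass the test. On the authors' TPM it was higher with each hairpin than in the sh control. The knockdown median of all genes was also above 0 on that scale (0.78 on log2(TPM + 1)). Both hairpins and the overexpression library were above 0 for 30 of the 44 genes (17.3% of 10827 genes), and NUSAP1 was the one gene at least 2-fold higher in all 3. With the controls exchanged the knockdown median was -0.03, as above, and the overexpression library had 40 of 44 above 0 (51.7% of all genes), 30 at least 2-fold higher (8.51%) and a median of 1.39.

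**Figure D5:**
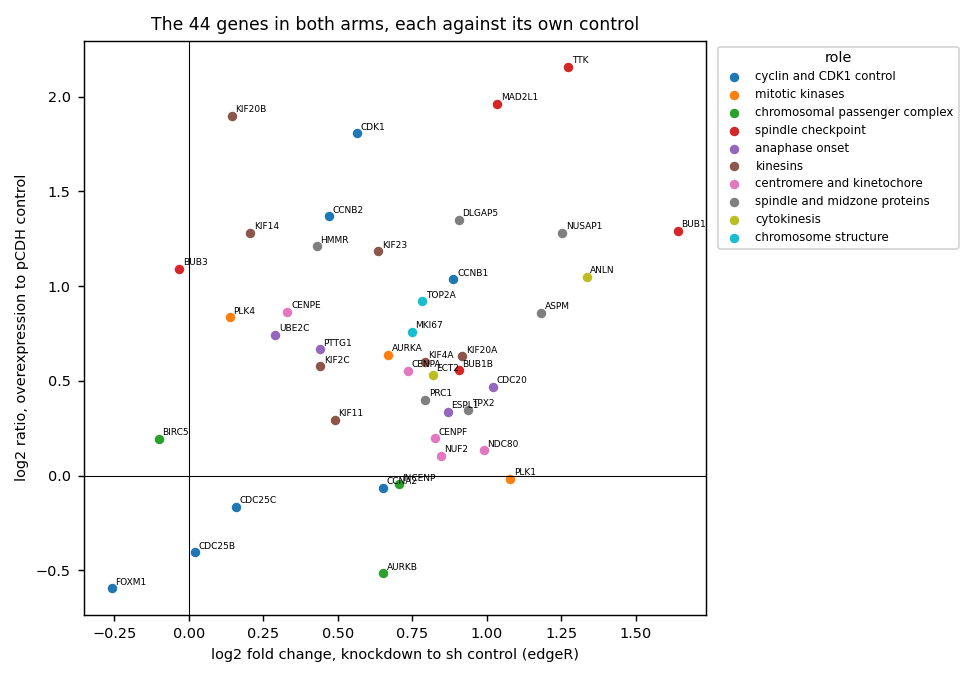
Each point is 1 of the 44 genes, with its knockdown log2 fold change (edgeR, x) against its log2 ratio of overexpression library to pCDH control (y), colored by role. Most points are in the upper right, 41 of 44 being above 0 on x and 37 on y; FOXM1 is the one gene below 0 on both axes.

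The RBMS1 level was fitted over all 5 libraries (-1 for knockdown, 0 for controls, 1 for overexpression), with a term for the vector. Each gene gets 1 slope shared by both arms, so a gene that moves in 1 arm alone can have a slope away from 0. With edgeR 0 of the 44 were called and 0 had an unadjusted p under 0.05, while of 15827 genes 1 (0.00632%, AC093010.3, named after its value was seen) was called and 1046 (6.61%) had an unadjusted p under 0.05. DESeq2 called 55 genes, 0 of them among the 44. Slopes per level had a median of -0.11 over the 44, against 0.02 over all genes, 16 of 44 were above 0 (51.1%), and 0 of 44 were at least 2-fold higher per level (8.81% of all genes). KIF20B at 0.79 (SE 0.53), CDK1 at 0.52 (SE 0.57) and BUB3 at 0.51 (SE 0.42) were the highest. After knockdown KIF20B (0.14) and CDK1 (0.57) were above 0 too, and BUB3 was at -0.03. Their overexpression ratios were 1.90, 1.81 and 1.09. PLK1 at -0.59 (SE 0.50), AURKB at -0.58 (SE 0.38) and NDC80 at -0.46 (SE 0.56) were the lowest. Each of these 6 slopes was within about 2 standard errors of 0. For AURKB the counting intervals lay above 0 in both hairpins (0.26 to 0.66 and 0.62 to 0.98) and below 0 in the overexpression library, but its slope did not pass the test (edgeR adjusted p = 0.765).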

How the data were processed

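The deposited expected counts per gene are RSEM estimates with TPM and FPKM beside them, per the file headers. Bowtie, STAR 2.4.2, RSEM 1.3.1 and DESeq2 are named, with no role, per the submitters' processing notes, and for build and annotation the authors' choice is "not given in the sources used here". Per the file headers, the authors' deposited comparison tables hold p-values, log2 fold changes and, as a signal, the mean of normalised counts. The design text calls the libraries footprints, and the protocol also describes an input of total RNA.

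Expected counts were rounded to whole numbers. Knockdown (2 libraries against 1) and the RBMS1 level (5 libraries, vector as covariate, 2 residual degrees of freedom) were fitted with edgeR 4.0.16 (TMM, filterByExpr, robust quasi-likelihood, Benjamini-Hochberg over all genes) in R 4.3.3. Pairs of single libraries were compared as log2 ratios of TMM-scaled counts with exact conditional 95% intervals, over genes with a mean CPM of at least 5. In sh1088 against the sh control NDC80, PLK4 and TTK were under that minimum, and PLK4 and TTK in the comparison of controls. Their ratios on the same scale are given. GC trends were removed by loess (span 0.5). Alternatives used DESeq2 1.42.0, limma-voom (limma 3.58.1), log2 TPM or FPKM with pseudocounts of 1 and 0.1, other scalings, no filter and the other control. The scripts were tested on simulated data.

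The 44 genes, the roles and the pathway lists were chosen with earlier results of these data known. Values in every library are given for 22 members listed by name and for the 3 highest and 3 lowest of each comparison. Up to 3 genes of each pathway list, by knockdown p, could be named.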

Additional observations from a re-analysis of the deposited data

How the results depend on the processing

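The median of the 44 genes after knockdown (0.74) was 1.37 with library size scaling, 1.43 and 1.83 on log2 TPM with pseudocounts of 1 and 0.1, 1.26 on log2 FPKM with 0.1, and -0.035 with the pCDH control, where 21 members were above 0. Library size scaling moved the median of all genes to 0.62 and log2(TPM + 1) to 0.78. Leaving out a hairpin gave medians of 0.29 to 0.99 and 37 to 40 members above 0. Genes called (0) became 27 with library size scaling, 102 with no filter, 93 with the pCDH control, 17 with DESeq2, 3 and 33 on TPM, and 22 and 77 on FPKM, with 0 of the 44 called in any of these. The sign changed for FOXM1, BIRC5 and BUB3 with library size scaling (0.30, 0.42 and 0.53), on TPM with 1 (1.07, 1.24 and 1.52) and with 0.1 (1.26, 1.29 and 1.57) and on FPKM with 1 (0.63, 0.67 and 0.96) and with 0.1 (0.67, 0.68 and 0.97), and for CENPE on FPKM (-0.16 and -0.22). With the pCDH control it changed for PLK1 (-0.40), AURKB (-0.18), BIRC5 (0.057), BUB1B (-0.43), KIF11 (-0.88), KIF20A (-0.34), CENPE (-0.36), CENPF (-1.03), NDC80 (-0.27), TPX2 (-0.16), TOP2A (-0.060), MKI67 (-0.63) and BUB3 (1.06). The overexpression median (0.63, 14 members at least 2-fold higher) was 1.39 with 30 against the sh control, 0.029 with 5 on log2(TPM + 1), where the median of all genes was -0.71, 0.031 with 7 on log2(TPM + 0.1), and 0.45 with 5 without the GC trend. For the RBMS1 level, library size scaling left 4 members above 0, and genes called were 36 with it, 89 with no filter and 55 with DESeq2. Leaving out a hairpin gave 30 to 136 genes called, medians from -0.18 to 0.17 (without sh1196) and 16 to 32 members above 0. The causes were not tested, other than that a different control or fewer libraries enter. Of the values of single named members under alternatives, 33 of 336 changed sign for knockdown (the 30 above, BIRC5 and KIF11 at 0.05 and -0.32 without sh1196, and BUB3 at 0.02 without the GC trend), 0 of 42 for the RBMS1 level and 38 of 250 for overexpression. For overexpression these were 10 for each TPM setting (CENPF -2.29, BIRC5 -0.97, BUB1B -0.88, CENPE -0.44, KIF11 -0.35, TPX2 -0.33, NDC80 -0.27, MKI67 -0.20, PTTG1 -0.01 and PLK1 0.28 on log2(TPM + 1)), 4 for each FPKM setting (CENPF -1.81, BIRC5 -0.45, BUB1B -0.37 and PLK1 0.81 on log2(FPKM + 1)), 5 without the GC trend (PLK1, KIF11, CENPF, NDC80 and CDC25B), 4 against the sh control (PLK1, AURKB, BIRC5 and CDC25B) and 1 with library size scaling (NDC80). No paired analysis was possible because the labels give no replicate numbers and the groups share none. Depth limits the rarest members, with 27 counts as the lowest value.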
